A study of Homo sapiens with 6 samples.

Results

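Integrin and laminin chains were followed in MDA-MB-231 cells, an established human breast cancer line, after electroporation of a small interfering RNA against parathyroid hormone-related protein (PTHrP), called siPTHrP, or of a control RNA against luciferase, called siLuc. The set held 32 genes in 3 classes, namely 16 integrin alpha chains, 8 integrin beta chains and 8 laminin chains. A gene was represented by every probe set whose array annotation names it alone, which gave 64 probe sets for 30 of the 32 genes, out of 22283 probe sets for 11963 genes. ITGB6 shares its probe sets with another annotated gene and LAMA3 is named by no probe set, so neither was analysed here. Each of 3 independent transfections gave 1 siPTHrP and 1 siLuc RNA, harvested after 3 days, so each group held 3 arrays, and the siRNA of each sample and the line are the only conditions the labels give. The transcript targeted by siPTHrP was not analysed here, so the knockdown was not checked.

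Integrins are surface receptors of 1 alpha and 1 beta chain that tie the extracellular matrix to the actin cytoskeleton and signal in both directions. The alpha chain largely sets the ligand: some bind laminins, some collagens, some the RGD motif of fibronectin and vitronectin, and others are found mainly on leukocytes and platelets. Laminins are trimers of an alpha, a beta and a gamma chain that build the basement membrane, and integrin alpha 6, paired with beta 1 or beta 4, is a main receptor for them. PTHrP is a secreted peptide through which breast cancer cells can drive the resorption of bone, and integrins have long been studied in how such cells attach to matrix in bone.

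One array stood apart. Its Spearman rank correlations across probe sets put the siLuc array of experiment 1 at 0.716 to 0.725 with the other 5 arrays, which reached 0.882 to 0.960 among themselves. The 18 spiked hybridisation controls had a geometric mean signal of 10840 to 40210 on the siPTHrP arrays, against 273100, 22870 and 41430 on the siLuc arrays of experiments 1, 2 and 3. Values were linear signal intensities from MAS5, and the median signal over all probe sets lay between 559 and 593 with siPTHrP, against 652 to 887 with siLuc. Precision is limited by the small number of arrays. Of the mesenchymal-like markers of the line 9 of 10 passed the intensity filter, with VIM (vimentin) at 96463 to 154350 in the siPTHrP samples. Of the 8 luminal epithelial markers, listed as low or absent in this line, 5 passed it, namely KRT19, ESR1, ERBB3, GATA3 and FOXA1. Over the siPTHrP and siLuc arrays KRT19 read 618 to 1713 and ESR1 154 to 1720. CDH1 (E-cadherin), EPCAM and PGR did not pass it. Passing the filter therefore does not by itself show that a gene is expressed in the line.

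Over all 31 member probe sets that passed the filter, the clearest differences were a lower signal of ITGA6 with siPTHrP and a higher signal of ITGAV, of LAMA5 and of 1 probe set of ITGB5. None passed the test across the array: in limma, blocked by experiment, 0 of 31 member probe sets were called at 0.05 after Benjamini-Hochberg adjustment, beside 0% of all 13329 tested. At an unadjusted limma p under 0.05 there were 3 higher member probe sets, or 9.68%, against 6.77% of all tested. The lower ones were 2, both of ITGA6, or 6.45%, against 5.36% of all tested. These shares lie near those of the whole array. With no block the same 5 member probe sets stood at that level, beside 5.19% of all tested higher and 5.15% lower. With the filter at the 60th percentile they did too, among 21 member probe sets, beside 8.18% of all tested higher and 5.18% lower. Without _x_at and _s_at probe sets, the kinds that can match several transcripts, ITGAV and 1 probe set of ITGA6 were left at it, beside 6.32% and 6.26% of all tested, and 0 members passed the adjusted threshold, beside 0.0705% of all. Leaving out experiments 1, 2 and 3 gave 4, 1 and 2 lower member probe sets at an unadjusted p under 0.05, beside 7.23%, 3.79% and 4.34% of all tested. The difference was above 0 in all 3 experiments for 10 member probe sets (32.3%, against 19.1% of all tested) and below 0 in all 3 for 4 (12.9%, against 19%). All siPTHrP arrays lay above all siLuc arrays for 4 member probe sets (12.9%, against 8.94% of all tested) and below them for 2 (6.45%, against 9.69%). Nothing in the labels ties samples to separate cultures beyond the 3 experiments, so the experiment is the unit of replication. The limma p-values do not measure the spread of a single probe set alone. Each variance combines 2 residual degrees of freedom with a prior of 7.17 degrees of freedom from probe sets of like signal.

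The upstream sequences are shown for the 4 chains with a probe set at an unadjusted limma p under 0.05, none of which passed adjustment. They are the 250 bases before the gene start in RefSeq on GRCh38.p14, read along the gene's strand, at chr2:172427336-172427585 (plus strand) for ITGA6, chr2:186589806-186590055 (plus strand) for ITGAV, chr3:124887366-124887615 (minus strand) for ITGB5 and chr20:62367313-62367562 (minus strand) for LAMA5. Capitals mark the core motif of the cAMP response element, TGACG or CGTCA on the other strand, and the GC box, GGGCGG or CCGCCC on the other strand.
ITGA6: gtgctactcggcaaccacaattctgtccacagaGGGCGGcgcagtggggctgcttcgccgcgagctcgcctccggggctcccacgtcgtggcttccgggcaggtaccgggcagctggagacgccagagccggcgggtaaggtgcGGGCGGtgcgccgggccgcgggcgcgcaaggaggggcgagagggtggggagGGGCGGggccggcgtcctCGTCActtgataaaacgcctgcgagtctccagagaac
ITGAV: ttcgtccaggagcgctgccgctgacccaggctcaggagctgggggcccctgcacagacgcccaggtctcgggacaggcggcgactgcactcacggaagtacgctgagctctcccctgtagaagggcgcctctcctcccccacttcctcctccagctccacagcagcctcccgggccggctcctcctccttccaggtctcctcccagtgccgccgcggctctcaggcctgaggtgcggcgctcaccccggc
ITGB5: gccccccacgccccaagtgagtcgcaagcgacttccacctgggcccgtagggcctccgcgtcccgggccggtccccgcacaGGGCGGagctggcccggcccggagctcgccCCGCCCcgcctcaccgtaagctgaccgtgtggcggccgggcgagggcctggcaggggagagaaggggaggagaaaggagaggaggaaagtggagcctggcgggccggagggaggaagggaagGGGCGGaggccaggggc
LAMA5: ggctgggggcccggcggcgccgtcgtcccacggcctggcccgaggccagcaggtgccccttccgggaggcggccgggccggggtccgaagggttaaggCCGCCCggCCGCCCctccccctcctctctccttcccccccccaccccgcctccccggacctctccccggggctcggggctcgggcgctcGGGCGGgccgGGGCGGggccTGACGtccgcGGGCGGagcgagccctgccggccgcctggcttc
Where RefSeq lists several starts, the window richest in G and C is printed, out of 2 for ITGA6, 2 for ITGAV and 3 for ITGB5. The PTHrP receptor raises cAMP, which is why that motif was searched. It occurs once in the printed window of ITGA6, with its first base 37 bases before the start, and once in that of LAMA5, 43 bases before it. The ITGA6 window not printed also holds it, 116 bases before its start. The windows of ITGAV and ITGB5 hold none. Of all 35116 windows of this length 21.2% hold the cAMP motif and 42.6% the GC box. Among the 31 windows of the 24 member genes that matched by symbol, 25.8% hold the cAMP motif and 54.8% the GC box. A match describes letters and not a bound site.

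**Figure D1:**
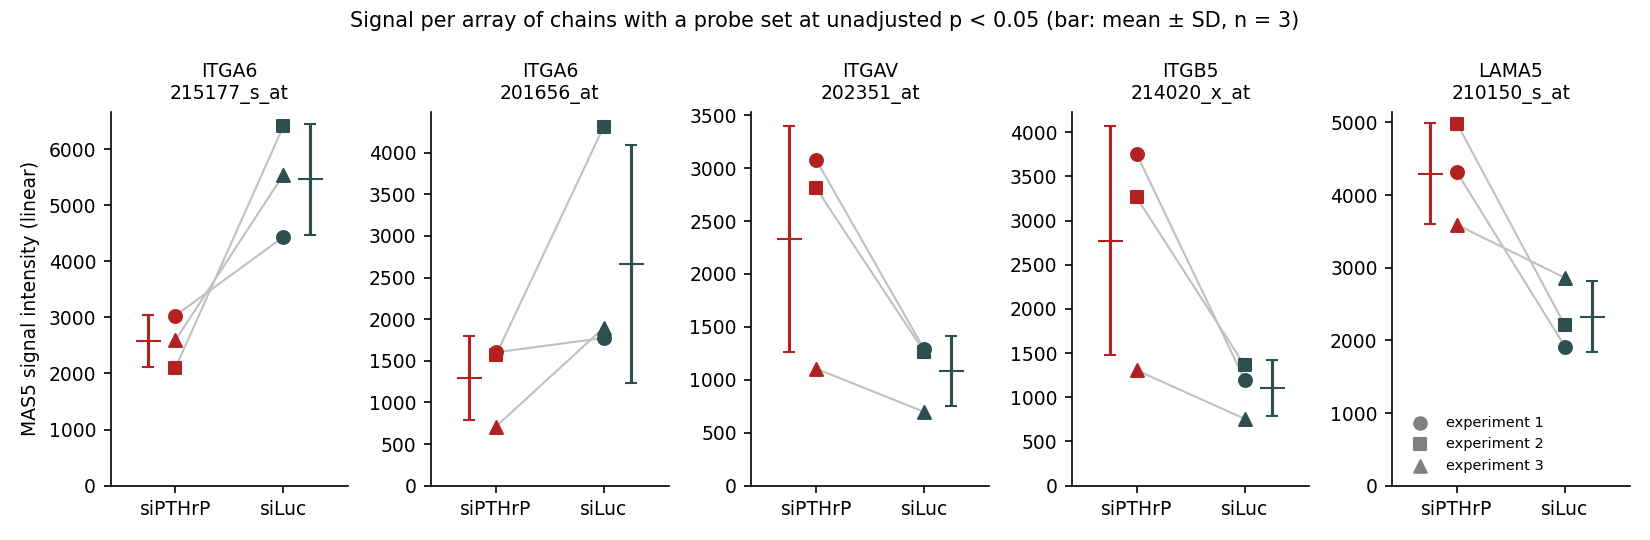
Signal intensity (linear, MAS5) per array for the 5 member probe sets at unadjusted p under 0.05, siPTHrP left and siLuc right. Marker shape and grey lines join the arrays of an experiment, and the bars give the mean ± SD of 3 arrays. Both ITGA6 probe sets lie lower on every siPTHrP array than on any siLuc array, while for ITGAV and ITGB5 the siPTHrP array of experiment 3 overlaps the siLuc arrays.

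Among the alpha chains, 10 of 16 had a probe set above the filter. Their median log2 difference was 0.13 with 6 of 10 genes above 0, beside a median of 0.030 and 52.5% above 0 for all probe sets tested. It was 0.33, -0.077 and -0.16 in experiments 1, 2 and 3, and -0.155 without experiment 1. With the filter at the 60th percentile, which keeps brighter probe sets, it was 0.249, and the median of all probe sets tested was 0.0901. ITGA6, the laminin-binding alpha 6 chain, had a signal of 3031, 2100 and 2592 in the siPTHrP samples of experiments 1, 2 and 3, against 4435, 6409 and 5544 in the siLuc samples, on its brighter probe set (215177_s_at). Every siPTHrP value was below every siLuc value, and the gap was smallest in experiment 1. The mean was 2574 ± 466 with siPTHrP and 5463 ± 990 with siLuc (SD, n = 3 each), or 0.473-fold, which is -1.08 on the log2 scale (SE 0.24, limma adjusted p = 0.321). The second probe set (201656_at) gave 1601, 1566 and 708 with siPTHrP, against 1774, 4314 and 1898 with siLuc. These groups did not overlap either, but in experiment 1 the difference was only -0.15 on the log2 scale, against -1.45 and -1.40 in experiments 2 and 3. It stood at -1.001 on the log2 scale (SE 0.33, limma adjusted p = 0.360). Without experiment 1 both ITGA6 probe sets passed, at log2 fold changes of -1.35 and -1.43 (limma adjusted p = 0.0192 and 0.0375), where 0.248% of all probe sets did. Without experiment 3 the brighter one passed (adjusted p = 0.0487, with 1.61% of all called), and without experiment 2 neither did (adjusted p = 0.339 and 0.651, with 0.353% of all called). Array weights, which put less weight on experiment 1, called both ITGA6 probe sets, LAMA5 and 1 probe set of ITGB5, where 1.33% of all probe sets were called. Leaving out only the siLuc array of experiment 1, with no block, gave -1.22 and -1.23 (adjusted p = 0.221 and 0.361).

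ITGAV, the alpha V chain that binds RGD ligands such as vitronectin, had 1 probe set, at 3077, 2809 and 1105 with siPTHrP and 1288, 1265 and 697 with siLuc. The siPTHrP value was higher in each experiment, while both arrays of experiment 3 were low, so that the groups overlapped. The means were 2330 ± 1069.6 with siPTHrP and 1083 ± 335 with siLuc (SD, n = 3 each), 2.02-fold or 1.01 on the log2 scale (SE 0.30, limma adjusted p = 0.332). Leaving out 1 experiment kept the log2 fold change between 0.897 and 1.19, with adjusted p-values of 0.217, 0.585 and 0.120 without experiments 1, 2 and 3. ITGA2B, the platelet alpha IIb chain, had 486, 426 and 1172 with siPTHrP and 1437, 824 and 1121 with siLuc on the only one of its 4 probe sets above the filter. The samples of experiment 3 were alike on this probe set, and the difference of -0.80 on the log2 scale (SE 0.46, limma adjusted p = 0.482) was within the spread. Below the filter, 206494_s_at had 24, 40 and 61 with siPTHrP and 81.5, 75 and 97 with siLuc, with no overlap. 216966_at was lower in all 3 experiments with overlapping groups, and 216956_s_at was lower in experiments 1 and 2 but not in experiment 3. Platelet markers had no common direction: 2 of 4 passed the filter, 1 above and 1 below 0, and the summed signal of the 4 was 2125 to 2536 with siPTHrP and 2264 to 2761 with siLuc. ITGA2, a collagen-binding chain, had 2862, 2289 and 2987 with siPTHrP, against 1540, 2651 and 2262 with siLuc. It was higher with siPTHrP in experiments 1 and 3 and lower in experiment 2 (log2 fold change 0.36, SE 0.27, limma adjusted p = 0.578, and 0.0941 without experiment 1).

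None of the other 6 alpha chains above the filter reached an unadjusted limma p under 0.05. ITGA5, the fibronectin-binding alpha 5 chain, had log2 differences of 2.06, -0.40 and -0.64 in experiments 1, 2 and 3. Its positive sign came from the siLuc array of experiment 1, which read 427 where the other 5 arrays read 1717 to 3258. Without experiment 1 the log2 fold change of ITGA5 was -0.522 (limma adjusted p = 0.347). ITGA3, which like ITGA6 binds laminins, had 7626, 4936 and 6318 with siPTHrP and 4218, 7542 and 5965 with siLuc. Its groups overlapped fully, at 0.11 on the log2 scale (SE 0.26, limma adjusted p = 0.875), and the sign turned without experiment 1 (-0.264) and with quantile normalization (-0.0106). ITGA10, another collagen receptor chain, was higher in 3 of 3 experiments by 0.40, 0.11 and 0.24 on the log2 scale (adjusted p = 0.727). The integrins known from leukocytes were at 0.15 for ITGAE, -0.80 for ITGAL and -0.19 for ITGAM on the log2 scale (limma adjusted p = 0.814, 0.591 and 0.885). The sign turned for ITGAE without experiment 2 (-0.122) and for ITGAM with quantile normalization (0.129). For ITGAL, the alpha L chain, the siLuc array of experiment 1 read 1471 and the other 5 arrays 235 to 950, and the log2 fold change was -0.145 without experiment 1. Of 10 leukocyte markers 8 were measured, and the summed signal of the 8 was 2633 to 3093 on siPTHrP arrays, against 3171 to 7419 on siLuc arrays. The highest sum was on the siLuc array of experiment 1. The 3 that passed the filter were all below 0. They stood at -1.40 for MS4A1, -0.41 for CD3E and -0.26 for CD53 on the log2 scale (limma adjusted p = 0.429, 0.755 and 0.749). The siLuc array of experiment 1 was the highest for MS4A1 and CD3E, at 1416 and 1921. The log2 differences of CD3E were -1.755, -0.291 and 0.808 in experiments 1, 2 and 3. On MS4A1 all siPTHrP arrays lay below all siLuc arrays. PTPRC (CD45) read 123 to 203 with siPTHrP and 120 to 703 with siLuc, below the filter, with 703 on the siLuc array of experiment 1. The median over all probe sets below the filter was 106 to 128 with siPTHrP, against 141 to 241 with siLuc. The part of these markers in the leukocyte integrin values was not tested.

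**Figure D2:**
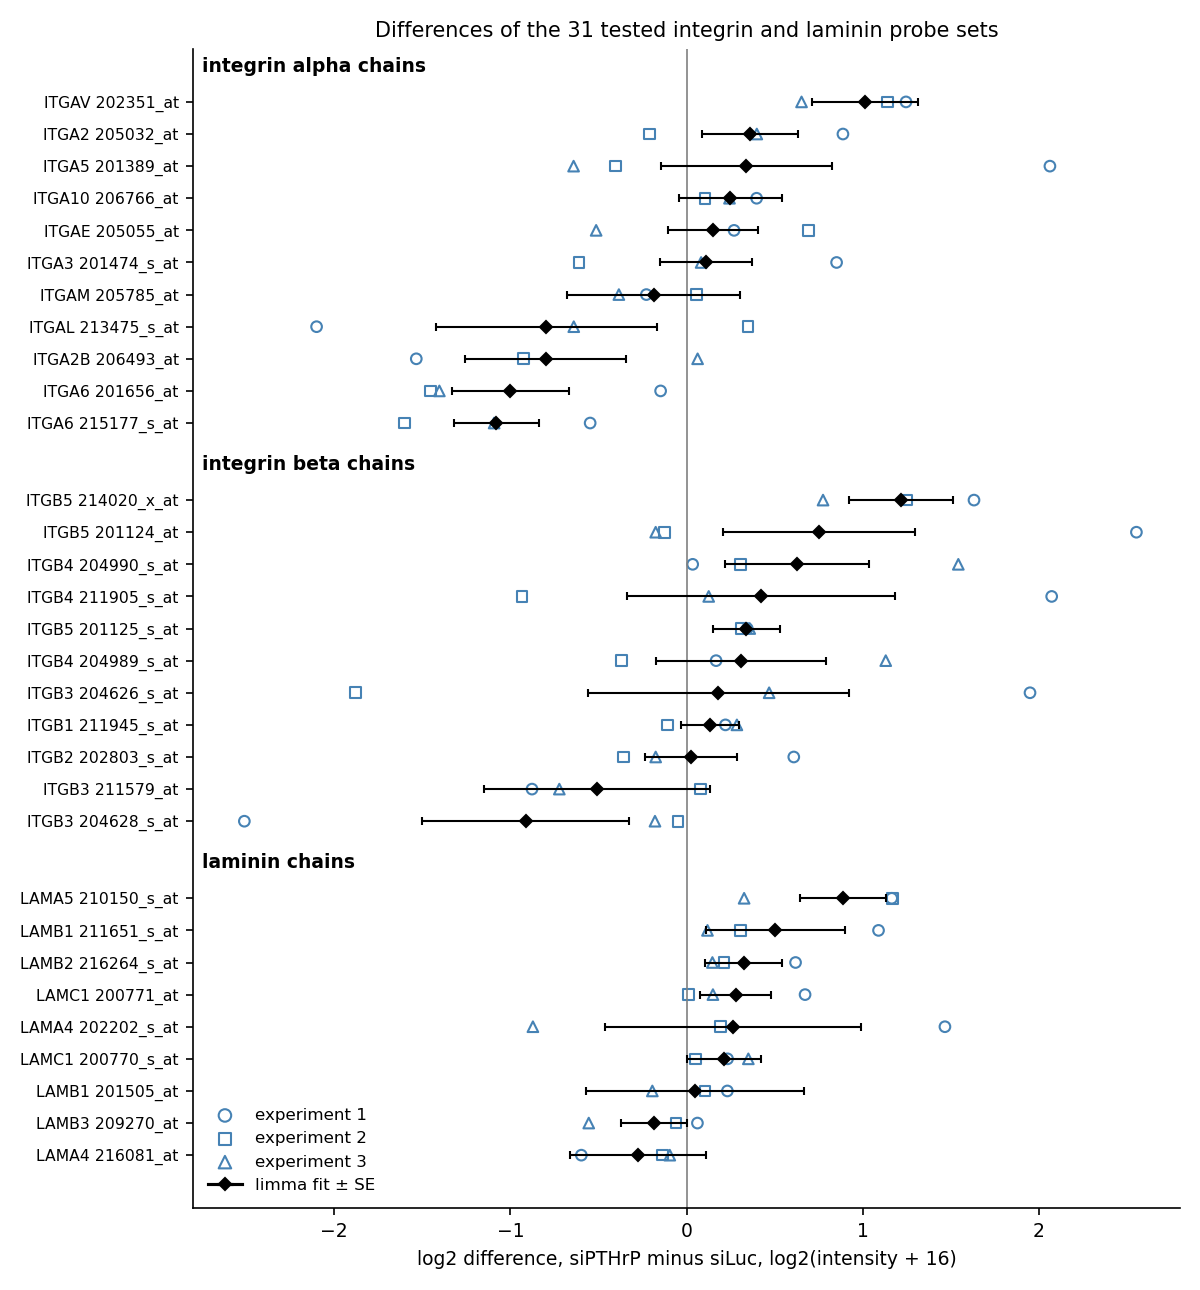
Log2 difference (siPTHrP minus siLuc, of log2(intensity + 16)) of each of the 31 tested member probe sets by chain class. Open symbols are the 3 experiments, and black diamonds with bars are the limma fold change ± SE. ITGA6 lies left of 0 on both probe sets in all experiments, ITGAV and LAMA5 lie right of it, and several probe sets, such as ITGA5 and 201124_at of ITGB5, are set apart by experiment 1.

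Beta chains had 5 of 7 measured genes above the filter, with a median log2 difference of 0.13 and 4 of 5 genes above 0. The medians in experiments 1, 2 and 3 were 0.22, -0.049 and 0.29. ITGB5, the beta 5 chain that pairs with alpha V, was not uniform over its probe sets. On the brightest (201125_s_at) it had 5042, 4387 and 4354 with siPTHrP and 3965, 3530 and 3392 with siLuc. All siPTHrP arrays were above all siLuc arrays by a like amount in each experiment, with log2 differences of 0.35, 0.31 and 0.36. The fold change was 1.26 (log2 0.34, SE 0.19, limma adjusted p = 0.472). On 214020_x_at, a kind of probe set whose probes may also match other transcripts, it had 3755, 3263 and 1307 with siPTHrP and 1201, 1361 and 757 with siLuc. That probe set was higher in each experiment and low on both arrays of experiment 3, as for ITGAV, with a fold change of 2.33 (log2 1.22, SE 0.30, limma adjusted p = 0.324). It passed without experiment 3 (log2 1.44, adjusted p = 0.0262) but not without experiments 1 or 2 (adjusted p = 0.152 and 0.369). On 201124_at the siLuc array of experiment 1 read 243 and the other 5 arrays 1263 to 1617, so the log2 fold change of 0.75 turned to -0.150 without experiment 1. Below the filter, 214021_x_at had 320, 368 and 114 with siPTHrP and 42.4, 195 and 406 with siLuc. Its log2 differences were 2.52, 0.86 and -1.70 in experiments 1, 2 and 3.

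ITGB4, the beta 4 chain that pairs with ITGA6 alone, had 1046, 1063 and 2082 with siPTHrP and 1021, 857 and 704 with siLuc on its brightest probe set. The groups did not overlap, yet the difference was 0.035 and 0.31 in experiments 1 and 2 and 1.54 in experiment 3 on the log2 scale. The fold change was 1.55 (log2 0.63, SE 0.41, limma adjusted p = 0.522), with a log2 fold change of 0.17 without experiment 3. The other 3 probe sets of ITGB4 did not share one direction. 204989_s_at gave 0.31 on the log2 scale and -0.101 without experiment 3, and 211905_s_at gave 0.42 and -0.403 without experiment 1. 214292_at, below the filter, had 25, 27 and 41 with siPTHrP and 154, 131 and 161 with siLuc, lower in all 3 experiments with no overlap. ITGB1, the common beta 1 partner of most alpha chains, had 36662, 33908 and 29509 with siPTHrP and 31456, 36569 and 24197 with siLuc. Its groups overlapped, with a fold change of 1.10 (log2 0.13, SE 0.16, limma adjusted p = 0.740). Its 4 other probe sets lay below the filter. For ITGB3, the beta 3 chain that pairs with alpha V and alpha IIb, the 3 probe sets above the filter disagreed in sign. The brightest had 307, 741 and 506 with siPTHrP and 1824, 767 and 575 with siLuc, or -0.91 on the log2 scale (SE 0.59, limma adjusted p = 0.519), with a log2 difference of -2.51 in experiment 1 and -0.049 and -0.18 in experiments 2 and 3. The other 2 gave 0.18 and -0.51. Without experiment 1 the brightest stood at -0.114, and the probe set at 0.18 (204626_s_at) at -0.705. Below the filter, 215240_at of ITGB3 had 175, 73 and 187 with siPTHrP and 417.5, 221 and 292 with siLuc, with no overlap. The groups overlapped on 216261_at, 204627_s_at and 204625_s_at. ITGB2, the leukocyte beta 2 chain, stood at 0.026 on the log2 scale (SE 0.26, limma adjusted p = 0.975) and at -0.266 without experiment 1.

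Laminin chains had 6 of 7 measured genes above the filter, with a median of 0.30 on the log2 scale and 4 of 6 genes above 0. That median was 0.65, 0.11 and 0.13 in experiments 1, 2 and 3, 0.0807 without experiment 1 and -0.0679 without _x_at and _s_at probe sets. The classes had no fixed order: by brightest probe sets the laminin median exceeded the beta median, but over all kept probe sets it was 0.26, against 0.31 for beta chains, and without experiment 1 the beta median was 0.0886. LAMA5, the alpha 5 chain of basement membrane laminins, had 4312, 4984 and 3591 with siPTHrP, against 1915, 2206 and 2860 with siLuc. All siPTHrP values exceeded all siLuc values, with log2 differences of 1.17 in experiments 1 and 2 and 0.33 in experiment 3. The means were 4296 ± 697 with siPTHrP and 2327 ± 484 with siLuc (SD, n = 3 each), 1.85-fold or 0.89 on the log2 scale (SE 0.24, limma adjusted p = 0.328). LAMA5 passed without experiment 3 (log2 1.17, adjusted p = 0.0414) and not without experiments 1 or 2 (adjusted p = 0.194 and 0.466).

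The beta and gamma chains that join LAMA5 in trimers showed smaller differences. LAMB1 had 1340, 1170 and 946 with siPTHrP and 621, 943 and 870 with siLuc on its brighter probe set. The groups did not overlap, but the siPTHrP array of experiment 3 exceeded the siLuc array of experiment 2 by only a few units, with a fold change of 1.42 (log2 0.51, SE 0.39, limma adjusted p = 0.587) and a log2 fold change of 0.213 without experiment 1. Its second probe set gave 0.048 on the log2 scale. LAMB2 had 2772, 3392 and 4358 with siPTHrP and 1799, 2926 and 3934 with siLuc, higher in 3 of 3 experiments with overlapping groups (log2 0.33, SE 0.22, limma adjusted p = 0.529). LAMC1, the common gamma 1 chain, had 5153, 6343 and 4819 with siPTHrP and 3226, 6292 and 4342 with siLuc. It too was above 0 in 3 of 3 experiments on both probe sets, at 0.28 (SE 0.20) and 0.21 (SE 0.21) on the log2 scale (limma adjusted p = 0.559 and 0.670). Leaving out the siLuc array of experiment 1, with no block, gave 0.023 for LAMB2 and 0.047 and 0.352 for the 2 probe sets of LAMC1. LAMB3, a chain of the epithelial laminin that anchors hemidesmosomes, stood at -0.18 on the log2 scale (SE 0.19, limma adjusted p = 0.680) and at 0.00151 without experiment 3. LAMA4, an alpha chain known from vessels and mesenchyme, gave -0.28 and 0.26 on its 2 probe sets above the filter, each within the spread, and the value of 0.26 turned to -0.339 without experiment 1. Below the filter, 210990_s_at of LAMA4 had 100, 132 and 85 with siPTHrP and 134.1, 155 and 139 with siLuc, with no overlap. The groups overlapped on 210989_at and 210089_s_at. Of 5 endothelial markers only PECAM1 (CD31) passed the filter, with 791, 419 and 481 with siPTHrP and 2013, 1056 and 1460 with siLuc (log2 -1.40, SE 0.39, limma unadjusted p = 0.0053, adjusted p = 0.328). The summed signal of the 5 was 850 to 1791 with siPTHrP and 1768 to 5290 with siLuc, and their part in the LAMA4 values was not tested. Probe sets below the filter on the whole array also read lower with siPTHrP, at a median of 106 to 128, against 141 to 241 with siLuc.

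**Figure D3:**
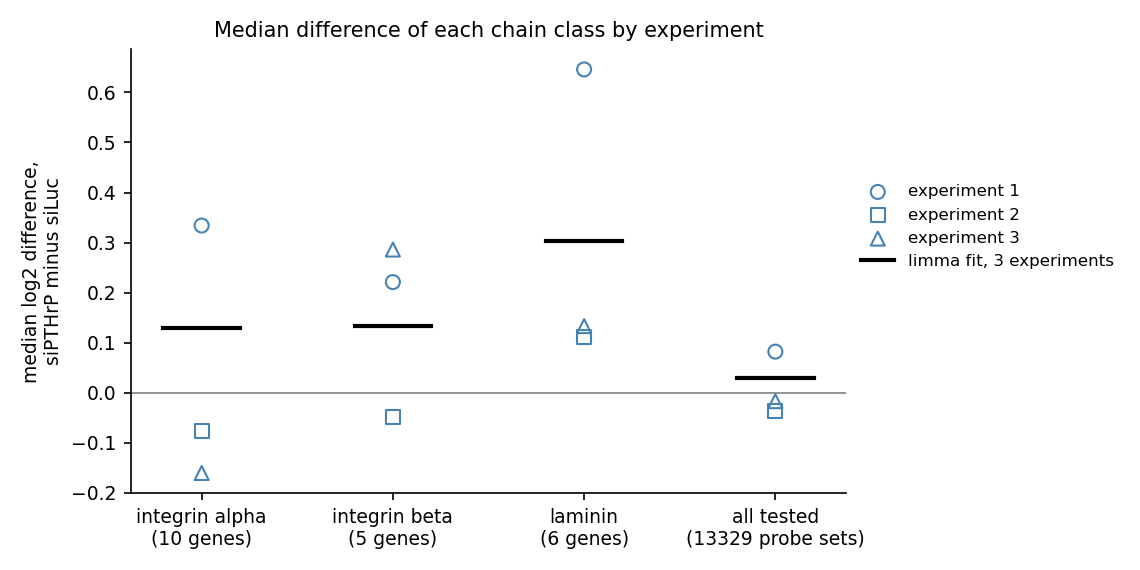
Median log2 difference (siPTHrP minus siLuc) over the genes of each chain class, each by its brightest probe set above the filter, in experiments 1, 2 and 3 (open symbols) and in the limma fit (black bars), beside all 13329 probe sets tested. The laminin median is above 0 in each experiment and the alpha median is above 0 only in experiment 1.

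The 9 measured members with no probe set above the filter were ITGA1, ITGA4, ITGA7, ITGA8, ITGA9, ITGAX, ITGB7, ITGB8 and LAMA2. Their 16 probe sets had a median signal of 79.5 to 116.5 on the siPTHrP arrays, against 225.5 on the siLuc array of experiment 1 and 124 and 151 on those of experiments 2 and 3. The median over all probe sets below the filter on the whole array shifted in a like way. It was 113, 106 and 128 on the siPTHrP arrays of experiments 1, 2 and 3, against 241, 141 and 167 on the siLuc arrays. Over all 33 member probe sets below the filter, 18 (54.5%) were highest on the siLuc array of experiment 1, beside 49.9% of the 8886 probe sets below it on the whole array. The groups did not overlap for 6 of the 33 (18.2%), all lower with siPTHrP, against 17% of all probe sets below the filter. LAMA2, the muscle laminin alpha 2 chain, was among them with 117, 392 and 117 with siPTHrP and 571, 767 and 839 with siLuc, on 1 of its 4 probe sets. The other 3 overlapped between the groups. With no filter, this probe set and 214292_at of ITGB4 joined the 2 of ITGA6 at an unadjusted p under 0.05 in limma, where 6.88% of all probe sets were lower at that level. ITGA7, which binds laminins in muscle, read 30, 67 and 85 with siPTHrP and 476, 117 and 174 with siLuc on its brighter probe set. On the other (216331_at) it read 72, 59 and 110 with siPTHrP and 137, 64 and 113 with siLuc, and the groups overlapped. The 4 muscle markers, none of which passed the filter, had a summed signal of 411 to 670 with siPTHrP and 1171 to 1925 with siLuc. Probe sets below the filter as a whole also read lower with siPTHrP, as given above. CKM, DES and MYH2 were lower with siPTHrP in 3 of 3 experiments, while ACTA1 had 202, 121 and 379 with siPTHrP and 1345, 463 and 137 with siLuc, so it was higher in experiment 3. Their part in the LAMA2 and ITGA7 values was not tested.

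Lists of genes that work with these chains were set beside them, each gene by its brightest probe set. No gene of any list passed the test over all probe sets with limma. Surface partners and laminin co-receptors were above 0 in 12 of 18 tested genes (66.7%, against 52.5% of all probe sets tested), with a median log2 difference of 0.13. At an unadjusted limma p under 0.05 they held 3 higher (16.7%, against 6.77% of all) and 1 lower (5.56%, against 5.36%). Dystonin (DST), which with plectin (PLEC) links ITGB4 to keratin filaments in hemidesmosomes, had 5236, 6628 and 4377 with siPTHrP and 2006, 4803 and 2706 with siLuc (log2 0.84, SE 0.23, limma adjusted p = 0.328). PLEC had 3493, 1826 and 4873 with siPTHrP, against 4953, 3988 and 6142 with siLuc (log2 -0.65, SE 0.22, limma adjusted p = 0.362). The pair thus pointed in opposite directions, each in 3 of 3 experiments. CD9, a tetraspanin found with laminin-binding integrins, stood at 0.45 and the immunoglobulin protein BSG at 0.38 on the log2 scale (limma adjusted p = 0.369 and 0.410). The siLuc array of experiment 1 was the lowest array for DST and BSG, but not for CD9.

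Of the basement membrane partners of laminins 5 of 8 tested genes (62.5%) were above 0, with a median of 0.15, and 1 (12.5%) was higher at an unadjusted limma p under 0.05. That gene was COL4A2, a type IV collagen chain, with 4547, 4852 and 4230 with siPTHrP and 2128, 3184 and 2488 with siLuc. Its groups did not overlap (log2 0.82, SE 0.21, limma adjusted p = 0.324). Its partner chain COL4A1 stood at 0.65 and COL7A1, the anchoring fibril collagen, at 1.04 (limma adjusted p = 0.502 and 0.419). For both, and for COL4A2, the siLuc array of experiment 1 was the lowest. COL4A3 stood at -0.62 (adjusted p = 0.680), near the filter, at 279 to 406 with siPTHrP and 455 to 611.5 with siLuc. Integrin activators and adaptors were balanced, with 11 of 21 tested genes (52.4%) above 0 and a median of 0.027. Focal adhesion kinase, PTK2, was the 1 gene (4.76%) lower at an unadjusted p under 0.05, with 1865, 1443 and 2020 with siPTHrP and 2775, 2288 and 3100 with siLuc (log2 -0.61, SE 0.24, limma adjusted p = 0.394). TLN2, a talin, stood at -1.57, ITGB1BP1, which binds the beta 1 tail, at 0.51, and the small GTPase RAP1B at 0.43 (limma adjusted p = 0.410 to 0.458). The groups overlapped for TLN2, at 156 to 389 with siPTHrP and 343 to 1412 with siLuc. Its log2 differences were -1.30, -3.05 and -0.34 in experiments 1, 2 and 3. For RAP1B the siLuc array of experiment 1 was the lowest, at 2524. Among integrin ligands other than laminins 9 of 15 tested genes (60%) were above 0, with a median of 0.096. TGFB1, whose latent form is bound by alpha V integrins, had 5010, 4576 and 5245 with siPTHrP and 2208, 4267 and 3405 with siLuc (log2 0.63, SE 0.24, limma adjusted p = 0.392), the 1 gene (6.67%) at an unadjusted p under 0.05. Fibronectin, FN1, stood at 0.46, VCAM1, a ligand of alpha 4 integrins, at -1.28 and MADCAM1 at -0.73 (limma adjusted p = 0.420 to 0.521). VCAM1 and MADCAM1 were dim, at 262 to 374 and 444 to 555 with siPTHrP, against 646 to 923 and 710 to 966 with siLuc. For TGFB1 and FN1 the siLuc array of experiment 1 was the lowest.

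**Figure D4:**
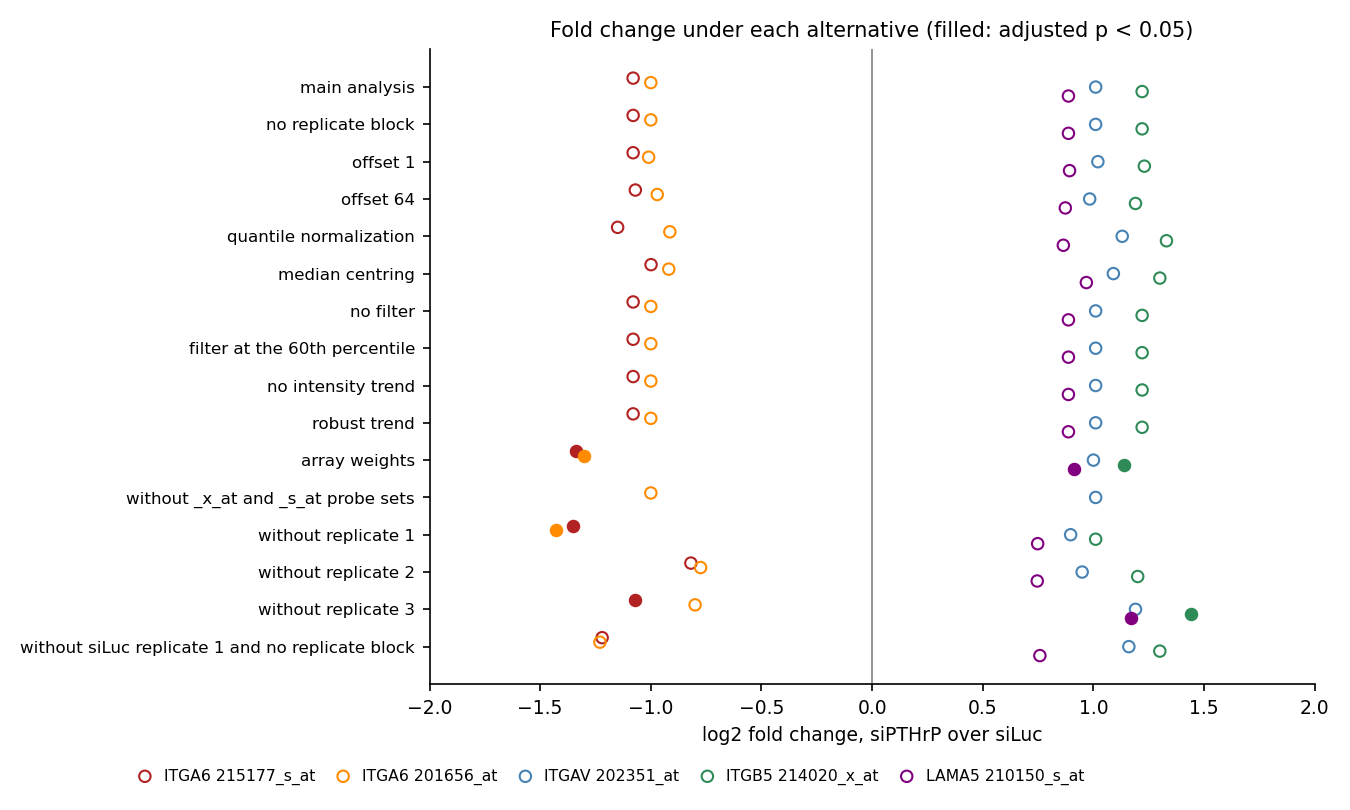
Log2 fold change (siPTHrP over siLuc) of the 5 member probe sets at unadjusted p under 0.05 in the main analysis and under each alternative setting, filled where the limma adjusted p was under 0.05. Each replicate number is 1 experiment. All values keep their side of 0, and filled points occur with array weights and when experiment 1 or 3 is left out.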

How the data were processed

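RNA had been extracted with RNeasy columns, biotin-labelled and put on Affymetrix human genome arrays, per the labels' protocols. The deposited values are linear signal intensities made by the authors with MAS5, per the submitters' processing notes; the version is not given in the sources used here. After trimming 2% at each end, the mean was 1500.4 to 1500.6 on all 6 arrays, so this scaling was kept.

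The 68 control probe sets were dropped. The test took the 13329 probe sets whose mean of log2(intensity + 16) reached the 40th percentile (8.614, near a signal of 376), which is the filter named in the text. It was run in limma 3.58.1 (R 4.3.3) with lmFit and eBayes, an intensity trend and the experiment as a block, leaving 2 residual degrees of freedom. P-values are two-sided and adjusted by Benjamini-Hochberg over all tested probe sets, with a threshold of 0.05. Fold changes put siPTHrP over siLuc and come from log2(intensity + 16), which understates changes of dim probe sets. MAS5 subtracts mismatch signal, so dim values are noisy.

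The unnumbered siLuc sample is experiment 1 by elimination, and a siLuc sample titled 3 but described as 2 was taken by its title. The design text pairs RNAs by experiment. Deviations from group means correlated at -0.0124, 0.157 and 0.157 within experiments 1, 2 and 3, and at -0.206 to 0.132 across them.

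The annotation gives 1 gene to 19071 probe sets, several to 1043 and none to 2169, and symbols were updated through Entrez identifiers to RefSeq names (GRCh38.p14). Members, gene lists and alternatives were chosen with earlier results of these data known. Members with a probe set at an unadjusted p under 0.05 were described in full, each class was filled up to 4 genes by smallest p, and at most 4 genes per list were named by smallest p. On simulated arrays with 13329 probe sets, 14.6% of those changed by a log2 of 1 and 68.5% of those changed by 2 were recovered. A mean of 2.8 unchanged probe sets per run were called. The simulated noise was independent, with the same spread for probe sets of like signal on an array, and held no experiment effect. The rates therefore need not hold for the real arrays.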

Additional observations from a re-analysis of the deposited data

How the results depend on the processing

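Over 15 alternative settings, 430 values of single member probe sets were recomputed: 396 kept their direction and their side of the threshold, 9 passed the threshold and 25 changed sign, on 11 probe sets. ITGA6, ITGAV, LAMA5 and the _x_at probe set of ITGB5 kept their direction in every setting that tested them. The count of 0 past the adjusted threshold, for members and for all probe sets, held with quantile normalization or median centring, offsets of 1 and 64, no filter or the 60th percentile, no replicate block, a robust or no trend, and on the 5 arrays other than the siLuc array of experiment 1, unblocked. With no replicate block there were again 3 higher and 2 lower member probe sets at an unadjusted p under 0.05, and no call changed. With array weights 4 member probe sets passed (both of ITGA6, 1 each of ITGB5 and LAMA5) among 177, or 1.33% of all tested. Leaving out 1 experiment gave 33 to 215 passing probe sets, of them 0 to 3 members. These fits have 1 residual degree of freedom and lean on the prior variance. Member probe sets lower at an unadjusted p under 0.05 then numbered 1 to 4, and 4 with no filter. Without _x_at and _s_at probe sets, 5 of all probe sets passed and members held 1 higher and 1 lower at that level, with fewer probe sets tested. The median of all probe sets was 0.030 on the log2 scale, 0.0894 with quantile normalization and 0.111 with median centring. It was 0.0901 with the filter at the 60th percentile and -0.163 with no filter.

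The alpha chain median was -0.215 with no filter, -0.156 with array weights and -0.155 to 0.121 leaving out 1 experiment. The laminin median was -0.0679 without _x_at and _s_at probe sets, which removes LAMA5, LAMB2 and the brighter probe set of LAMB1. Changes of sign with quantile normalization were -0.0106 for ITGA3 and 0.129 for ITGAM. With array weights they were -0.248 for ITGA3, -0.224 for ITGA5, -0.203 for ITGB2, -0.766 for ITGB3 (204626_s_at), -0.300 for ITGB4 (211905_s_at) and -0.00406 for LAMA4 (202202_s_at). Array weights put 0.386 on experiment 1, which holds the array that stood apart. Without the siLuc array of experiment 1, unblocked, the same probe sets gave -0.114 for ITGA3, -0.537 for ITGA5, -0.243 for ITGB2, -0.806 for ITGB3, -0.246 for ITGB4 and -0.472 for LAMA4, and 201124_at of ITGB5 gave -0.0957. Leaving out 1 experiment gave -0.264 to 0.467 for ITGA3 (201474_s_at), -0.522 to 0.83 for ITGA5 (201389_at), -0.122 to 0.482 for ITGAE (205055_at), -0.266 to 0.217 for ITGB2 (202803_s_at), -0.705 to 1.21 for ITGB3 (204626_s_at), -0.101 to 0.65 for ITGB4 (204989_s_at), -0.403 for ITGB4 (211905_s_at), -0.15 to 1.22 for ITGB5 (201124_at), -0.339 for LAMA4 (202202_s_at) and -0.307 to 0.00151 for LAMB3 (209270_at). The cause of these changes was not tested.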
